A study of Mus musculus with 6 samples.

Results

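Microtubule motors and the tubulins they walk on were compared between adrenal glands of mice without PACAP and adrenal glands of wild-type mice. The genes were taken by name: every gene of the arrays whose current mouse symbol starts with Kif, Klc, Dync, Dynl, Dctn and a digit, Tuba, Tubb or Tubg. This gave 64 genes of 11837 named on the arrays, and 145 cDNA clones of 22461 with 1 named gene. The motors made up 49 genes with 111 clones, the tubulins 12 genes with 28 clones, and components of the gamma-tubulin complex 3 genes with 6 clones. No clone carried the name of a gamma-tubulin itself, and 14 further clones listed under several genes, 1 of them a member, were left unnamed.

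The knockout RNA came from adrenal gland of PACAP -/- mice and the wild-type RNA from adrenal gland of PACAP +/+ mice, both F2 animals of the mixed 129XC57BL6 background. Each of 6 spotted cDNA arrays held 1 knockout RNA labelled with Cy3 (green) and 1 wild-type RNA labelled with Cy5 (red). The dyes were never exchanged, so a dye effect of a clone and a genotype effect cannot be told apart. The labels number the arrays as repeats without saying whether each held separate animals, so p-values reflect array-to-array spread only, part of which may be technical. Treatment, age and sex of the animals are not given in the sources used here, and whole glands hold cortex as well as medulla, so that fewer cells of a type and less RNA per cell cannot be told apart.

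As background, kinesins and cytoplasmic dynein are ATP-driven motors that haul cargo along microtubules, which are polymers of alpha- and beta-tubulin. Most kinesins move towards the plus end and dynein, with its activator dynactin, towards the minus end. In the chromaffin cells of the adrenal medulla and in the nerve fibres that reach them, such motors carry the dense-core vesicles that hold catecholamines and neuropeptides. PACAP (pituitary adenylate cyclase-activating polypeptide, encoded by Adcyap1) is a neuropeptide of those fibres that raises cyclic AMP in chromaffin cells.

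Cyclic AMP acts on many promoters through the cyclic AMP response element TGACGTCA, so upstream sequences are shown for 3 motors: Klc1, which had the largest ratio, Dync1i2, which had the most clones past the threshold, and Kif1a, a carrier of dense-core vesicles. They are the 250 bases before the first listed transcription start in RefSeq's GRCm38.p6 annotation, with TGACGTCA or its shorter cores TGACG and CGTCA in capitals. Klc1 lies on the + strand at chr12:111758618-111758867, Dync1i2 on the + strand at chr2:71211456-71211705, and Kif1a on the - strand at chr1:93101875-93102124.
Klc1: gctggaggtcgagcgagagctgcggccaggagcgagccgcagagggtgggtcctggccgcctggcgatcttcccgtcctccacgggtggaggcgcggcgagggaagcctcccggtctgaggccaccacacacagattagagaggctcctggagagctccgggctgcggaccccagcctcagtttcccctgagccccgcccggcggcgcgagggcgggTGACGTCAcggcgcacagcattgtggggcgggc
Dync1i2: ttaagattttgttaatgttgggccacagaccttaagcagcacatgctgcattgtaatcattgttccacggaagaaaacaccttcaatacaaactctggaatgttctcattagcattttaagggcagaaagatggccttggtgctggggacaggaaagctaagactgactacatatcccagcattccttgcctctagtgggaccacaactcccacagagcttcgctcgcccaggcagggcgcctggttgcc
Kif1a: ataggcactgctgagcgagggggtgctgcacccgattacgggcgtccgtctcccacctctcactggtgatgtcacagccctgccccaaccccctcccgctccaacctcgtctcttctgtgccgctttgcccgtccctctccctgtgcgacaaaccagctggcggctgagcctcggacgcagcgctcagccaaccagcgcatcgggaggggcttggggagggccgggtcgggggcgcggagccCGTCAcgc

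The Klc1 window holds the full element, beginning 33 bases before the start site. The Kif1a window holds 1 shorter core, beginning 8 bases before the start site, and the Dync1i2 window holds neither. Both strands were searched, and every full element also contains the shorter cores. Among all 27025 genes with a RefSeq window of this length, 1.77% held the full element and 19.8% a shorter core in at least 1 window. Of the 64 genes described here 49 had a window, of which 3 (Kif5c, Klc1 and Tubb2a) held the full element. Among 11 of the 12 genes with a clone past the threshold below, 1 held the full element and 6 a shorter core, against 20 of the 49 for a shorter core. These 11 genes have 17 windows between them. A match is a description of the letters, and binding was not measured.

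Ratios below are log2 of knockout over wild type after print-tip loess, which levels each of the 48 print blocks of an array separately. A clone was tested where its quality score passed 0.3 on at least 4 of the 6 arrays, and called where limma's adjusted p was under 0.05. In that fit 3304 of 28739 clones of all kinds were called (11.5%), 1978 of them higher in knockout glands (6.88%) and 1326 lower (4.61%). With global loess, which levels the whole array with 1 curve, 8772 clones were called (30.5%), 4694 higher (16.3%) and 4078 lower (14.2%). Global loess left print blocks with mean ratios between -0.59 and 0.50, against -0.04 and 0.06 after print-tip loess. Deposited signals are already net of the local background, so a net signal under that background is dim but not necessarily absent. The red channel was weak on arrays 2 and 4, where the median net red signal was 1.37 and 1.15 times the local background. On the other arrays it was 1.66 to 4.81 times. The green channel lay between 5.41 and 7.11 times its background on all arrays. Adcyap1 had 1 clone, which passed the quality filter on 2 arrays with -0.07 and -0.04, so that it gives no check of the genotypes.

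Of the motors, 95 clones of 43 genes were tested. Of these clones 15 (15.8%) rose in knockout glands and 3 (3.16%) fell, against 6.88% and 4.61% of all clones, and 77 did not pass. The median motor clone stood at 0.06, against -0.00 for all clones. The calls lay in the genes named Kif, heavy chains and their associated proteins Kifap3 and Kifbp, where 9 of 51 clones rose and 3 fell, in dynein, where 5 of 25 rose, and in the light chains, where 1 of 6 rose. None of the 13 dynactin clones passed, while with global loess 1 rose and 3 fell. Among the kinesins known for moving vesicles and organelles 8 of 34 clones rose and none fell, against 9 and 5 with global loess. Among those of the spindle none of 7 passed, while with global loess 1 rose and 2 fell. Kif2a, called in both directions below, was placed in neither role. With shares of 6.88% and 4.61% among all clones, 7 clones are too few to set the spindle kinesins apart. With global loess 23 motor clones rose and 13 fell (24.2% and 13.7%, against 16.3% and 14.2% of all clones), with a median of 0.06.

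Of the tubulins, 27 clones of all 12 genes were tested, and 1 rose (3.70%, against 6.88% of all clones) while 26 did not pass. Their median was 0.14, and 22 of 27 lay above 0, against 14339 of 28739 clones of all kinds. Without arrays 2 and 4 the tubulin median was 0.00 and 15 of 27 lay above 0, and with global loess 18 of 27 did. With global loess 13 tubulin clones rose and none fell (48.1% against 16.3% of all clones), with a median of 0.40. Of the 16 tubulin clones printed in blocks 25 to 48, where the median of all clones under global loess was 0.18, 12 rose. Of the 11 in blocks 1 to 24, where that median was -0.17, 1 rose. Among the motors under global loess 19 of 50 rose and none fell in the later blocks, while 4 of 45 rose and 13 fell in the earlier ones. Of clones of all kinds 3699 of 13968 rose and 240 fell in the later blocks. In the earlier blocks 995 of 14771 rose and 3838 fell.

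**Figure D1:**
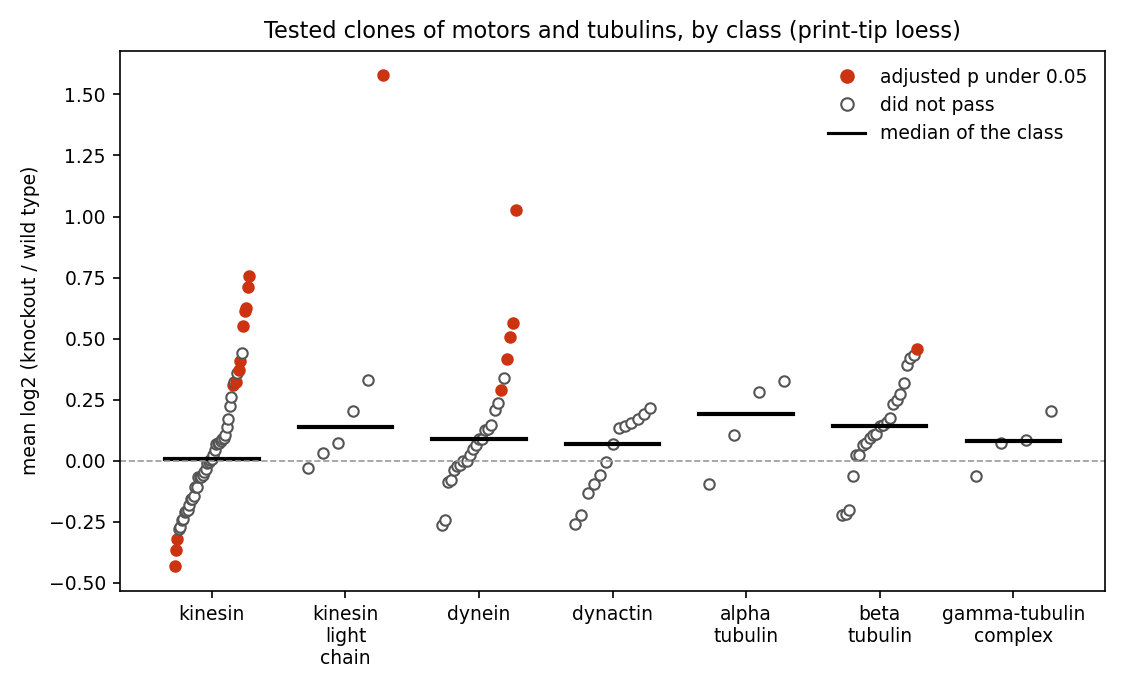
Mean log2 ratio of knockout over wild type (vertical axis) of each of the 126 tested clones, grouped by class, with clones past the threshold filled and a line at the median of each class. Called kinesin clones lie towards both ends of their range and called dynein clones towards the upper end, some beside clones that did not pass. The light chain clone at 1.58 stands apart from the other 5, and of the tubulins 1 beta-tubulin clone is filled.

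The largest ratio among all motors and tubulins was that of a Klc1 clone. Klc1 encodes a kinesin light chain, the part of kinesin-1 that binds cargo. On arrays 1 to 6 this clone (number 4 of the gene, counted by falling mean signal) read 0.95, 2.81, 1.22, 2.39, 0.85 and 1.24, higher in knockout on all 6 arrays and farthest from 0 on arrays 2 and 4. Its mean of 1.58 ± 0.24 (SE, n = 6) is a 2.99-fold higher signal in knockout glands, with an adjusted p of 0.0235 in limma. Its net wild-type signal lay under the local background on 1 array, and without dim spots the mean was 1.35. In the deposited intensities the knockout channel held between 1343 and 2456 units and the wild-type channel between 85.0 and 632. These values precede normalization, and green stood higher over its background than red on every array. The ranges did not overlap, but neither did those of Kif3a clone 5 (357 to 874 and 82.9 to 198), whose mean ratio was 0.00. Klc1 clone 4 was the 1 member clone called without arrays 2 and 4, at 1.07 with limma's adjusted p of 0.0077.

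The other Klc1 clones had smaller ratios. Clones 1, 2, 3 and 5 had means of -0.03, 0.20, 0.33 and 0.07, and none passed (adjusted p from 0.0742 to 0.814 in limma). Clone 6 had a value on 1 array. The standard errors of these 4 clones were at most 0.11, beside 0.24 for clone 4. With global loess clone 3 rose too (0.45, adjusted p 0.0446 in limma). Klc4, the other light chain on the arrays, stood at 0.03 (adjusted p 0.808 in limma).

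Dync1i2, the widely expressed intermediate chain that links dynein to dynactin, was the 1 gene with 3 tested clones that all rose. Clone 1 read 0.11, 1.69, 0.70, 1.65, 1.16 and 0.86 on arrays 1 to 6, with a mean of 1.03 ± 0.19 (SE, n = 6) and an adjusted p of 0.0254 in limma. Clone 2 read 0.12, 0.51, 0.24, 0.25, 0.15 and 0.47, a mean of 0.29 ± 0.08 (adjusted p 0.0498). Clone 3 read 0.02, 0.62, 0.53, 1.26 and 0.38 on arrays 1, 2, 3, 4 and 6, a mean of 0.56 ± 0.16 (SE, n = 5; adjusted p 0.0493 in limma). All values of the 3 clones were above 0. Clone 3 had a net wild-type signal under its own local background on 3 arrays. With global loess clone 1 was still called (1.18), while clone 2 stood at 0.35 and clone 3 at 0.37 with adjusted p of 0.0573 and 0.181 in limma.

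Kif5b, the ubiquitous kinesin-1 heavy chain to which the light chains bind, had 5 tested clones, all with means above 0. Clone 5 read 0.50, 1.02, 0.41, 1.03, 0.25 and 0.48, a mean of 0.61 ± 0.12 (SE, n = 6) with an adjusted p of 0.0257 in limma. Clone 2 read 0.37, 0.82, 0.67, 1.26, 0.07 and 0.12, a mean of 0.55 ± 0.15 (adjusted p 0.0434). Both were above 0 on all 6 arrays and highest on array 4, and the net wild-type signal of clone 5 lay under its local background on 2 arrays. Clones 1, 3 and 4 stood at 0.17, 0.36 and 0.44 and did not pass (adjusted p from 0.0566 to 0.269 in limma). Each of those 3 was below 0 on at least 1 array. With global loess clones 4 and 5 were called (0.55 and 0.85), and clone 2 was not (0.31).

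The kinesin-3 motors Kif1a and Kif1b, carriers of synaptic vesicle precursors and dense-core vesicles, each had 2 clones that rose. Kif1a clone 4 read 0.15, 0.55, 0.22, 0.39, 0.45 and 0.19 on arrays 1 to 6, a mean of 0.32 ± 0.08 (SE, n = 6) with an adjusted p of 0.0389 in limma. Kif1a clone 1 read 0.05, 0.34, 0.28, 0.47, 0.45 and 0.27, a mean of 0.31 ± 0.08 (adjusted p 0.0401). The title of clone 1 on the array names another gene, so its identity rests on the platform annotation. Of the other Kif1a clones, clone 3 stood at 0.32, clone 5 at 0.07 and clone 2 at -0.07, and none passed. Both called Kif1a clones were also called with global loess, at 0.52 and 0.89 for clones 1 and 4.

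Kif1b clone 2 read 0.12, 1.40, 0.36, 1.19, 0.12 and 0.55, a mean of 0.62 ± 0.17 (SE, n = 6) with an adjusted p of 0.0457 in limma. Arrays 2 and 4 stood well above the others. Clone 4 read 0.32, 0.14, 0.31, 0.89, 0.24 and 0.33, a mean of 0.37 ± 0.10 with the same adjusted p of 0.0457. Clones 1 and 3 stood at -0.07 and -0.11. Neither called clone passed with global loess (0.09 and 0.30 for clones 2 and 4), where clone 1 rose (0.59) and clone 3 fell (-0.66), so the clones of Kif1b gave no common direction. Kif1c, another kinesin-3, had 4 tested clones between -0.24 and 0.09, none past the threshold.

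**Figure D2:**
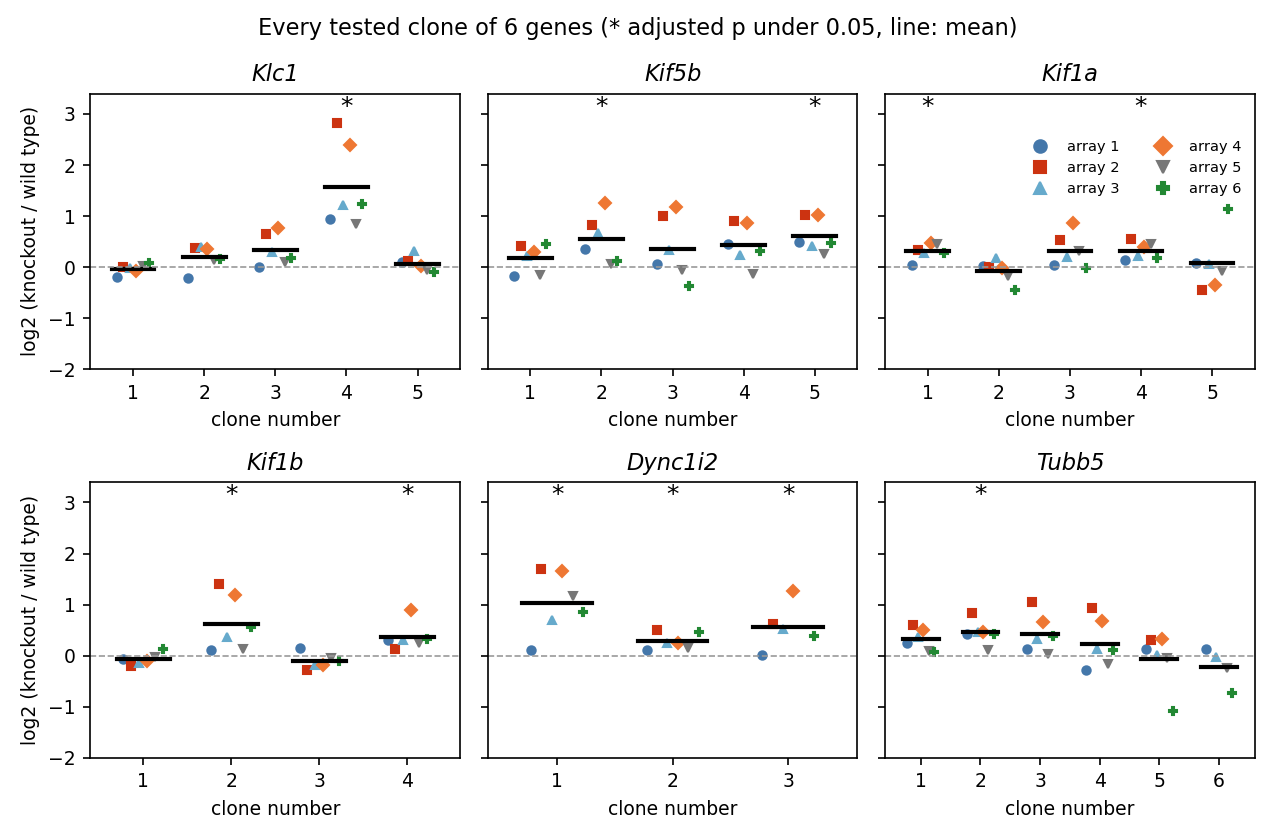
Log2 ratio of knockout over wild type (vertical axis) on each array, for every tested clone (horizontal axis, clone number) of Klc1, Kif5b, Kif1a, Kif1b, Dync1i2 and Tubb5, with a line at the mean and an asterisk over clones past the threshold. Klc1 clone 4 stands at 1.58 while the other Klc1 clones lie between -0.03 and 0.33, and arrays 2 and 4 are the highest points of most called clones.

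Single clones of other transport kinesins rose as well. Kif3b, which pairs with Kif3a in the kinesin-2 motor, had 1 clone that read 0.05, 1.50, 0.34, 1.76, 0.52 and 0.37, a mean of 0.76 ± 0.21 (SE, n = 6) with an adjusted p of 0.0477 in limma. The 5 clones of its partner Kif3a lay between -0.27 and 0.00 and none passed, clone 1 coming nearest at -0.27 (adjusted p 0.0583 in limma). Kifap3, the subunit that binds cargo to that motor, stood at 0.04. With global loess Kif3b rose (0.91), and of the Kif3a clones 2 fell and 1 rose.

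Kif13a, a kinesin-3 of endosomal transport, had a clone that read 0.01, 1.70, 0.50, 1.30, 0.50 and 0.26, a mean of 0.71 ± 0.20 (SE, n = 6) with an adjusted p of 0.0473 in limma. A separate Kif13a clone stood at -0.15 and did not pass. Kif5c, a neuronal kinesin-1 heavy chain, had clones at -0.18 and 0.23, and Kif21a clones at -0.24 and 0.09, none of which passed. Kif16b, another endosomal kinesin-3, had clones at 0.07 and 0.11.

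Of the 51 clones of genes named Kif 3 fell, and both clones of Kif9, a kinesin of motile cilia and sperm flagella, were among them. Clone 1 read -0.11, -0.42, -0.30, -0.63, -0.18 and -0.55, a mean of -0.37 ± 0.09 (SE, n = 6) with an adjusted p of 0.0365 in limma. Clone 2 read -0.54, -0.59, -0.31, -0.17, -0.16 and -0.15, a mean of -0.32 ± 0.09 (adjusted p 0.0462). The means are 1.29-fold and 1.25-fold lower signals in knockout glands. With global loess clone 1 stood at -0.32 and clone 2 at 0.05, and neither passed, so the direction of clone 2 depends on the normalization.

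Kif2a, a kinesin-13 that shortens microtubules from their ends, was called in both directions. Its clone 1 read -0.36, -0.46, -0.30, -0.36, -0.53 and -0.58 on arrays 1 to 6, a mean of -0.43 ± 0.07 (SE, n = 6) with an adjusted p of 0.0247 in limma. Its clone 2 read 0.16, 0.45, 0.23, 0.90, 0.12 and 0.58, a mean of 0.41 ± 0.11 with an adjusted p of 0.0435. The clones did not overlap on any array, and both carry titles of the kinesin family. With global loess neither passed, at -0.33 and 0.26. Clone 1 is the called clone with the smallest spread between arrays, and arrays 2 and 4 lay inside its range.

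The kinesins of cell division had 7 tested clones, with a median of -0.06. Kif11, the spindle motor that pushes poles apart, stood at -0.20 (adjusted p 0.0922 in limma), Kif14 at -0.16 and Kif2c at -0.00. Kif22 and Kif23, motors of chromosome arms and of the midbody, had clones between -0.11 and 0.07. Kif4 and Kif18a had too few arrays to be tested. With global loess Kif11 (-0.81) and Kif14 (-0.47) fell and Kif2c rose (0.36). Of the kinesins placed in neither role, other than Kif2a and Kif9, Kif28 (-0.28), Kifc3 (0.26), Kif6, Kif19a, Kif26a and Kifbp were tested and none passed. With global loess Kifc3 (0.82), Kif19a (0.49) and Kif6 (0.40) rose and Kifbp (-0.69) fell.

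Among the dynein light chains, Dynlrb1, of the roadblock type, rose in 1 of 3 clones. That clone read 0.40, 0.54, 0.47, 0.69, 0.26 and 0.68, a mean of 0.51 ± 0.08 (SE, n = 6) with an adjusted p of 0.0247 in limma. The other Dynlrb1 clones stood at 0.24 and -0.26. Dynlt3, of the Tctex type, rose in 1 of 4 clones. That clone read 0.19, 0.66, 0.47, 0.57, 0.60 and 0.01, a mean of 0.42 ± 0.10 (SE, n = 6) with an adjusted p of 0.0360 in limma, and the other 3 stood between 0.05 and 0.15, 1 of which rose with global loess (0.56). Both called light chain clones were also called with global loess (0.34 for Dynlrb1 and 0.48 for Dynlt3).

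Other dynein subunits did not pass after print-tip loess. Dync1h1, the dynein heavy chain that carries the ATPase, had clones at 0.13 and 0.09 with adjusted p of 0.562 and 0.496 in limma. Dync1i1, the intermediate chain known from neurons, had clones at -0.24 and -0.04. The light intermediate chains Dync1li1 (-0.08 and -0.02) and Dync1li2 (0.21), and the light chains Dynll1, Dynll2, Dynlrb2 and Dynlt1b, with clones between -0.09 and 0.34, did not pass. With global loess 1 of the Dync1h1 clones fell (-0.54, adjusted p 0.0061 in limma) and so did 1 of Dynll2 (-0.41), while 1 clone each of Dync1li1 (0.36), Dynll1 (0.46) and Dynlrb2 (0.38) rose. The heavy chain and light intermediate chain of the ciliary dynein, Dync2h1 and Dync2li1, had 2 arrays each and were not tested. Of dynactin, the complex that couples dynein to cargo, the clone with the smallest p was a Dctn6 clone with -0.15, -0.01, -0.26, -0.54 and -0.33 on arrays 1, 3, 4, 5 and 6, a mean of -0.26 ± 0.10 (SE, n = 5; adjusted p 0.105 in limma). Another Dctn6 clone stood at 0.21, and Dctn1, the p150 subunit, stood at 0.16. With global loess 1 clone of Dctn2 rose (0.63), and 2 of Dctn4 (-0.51 and -0.56) and 1 of Dctn5 (-0.54) fell.

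**Figure D3:**
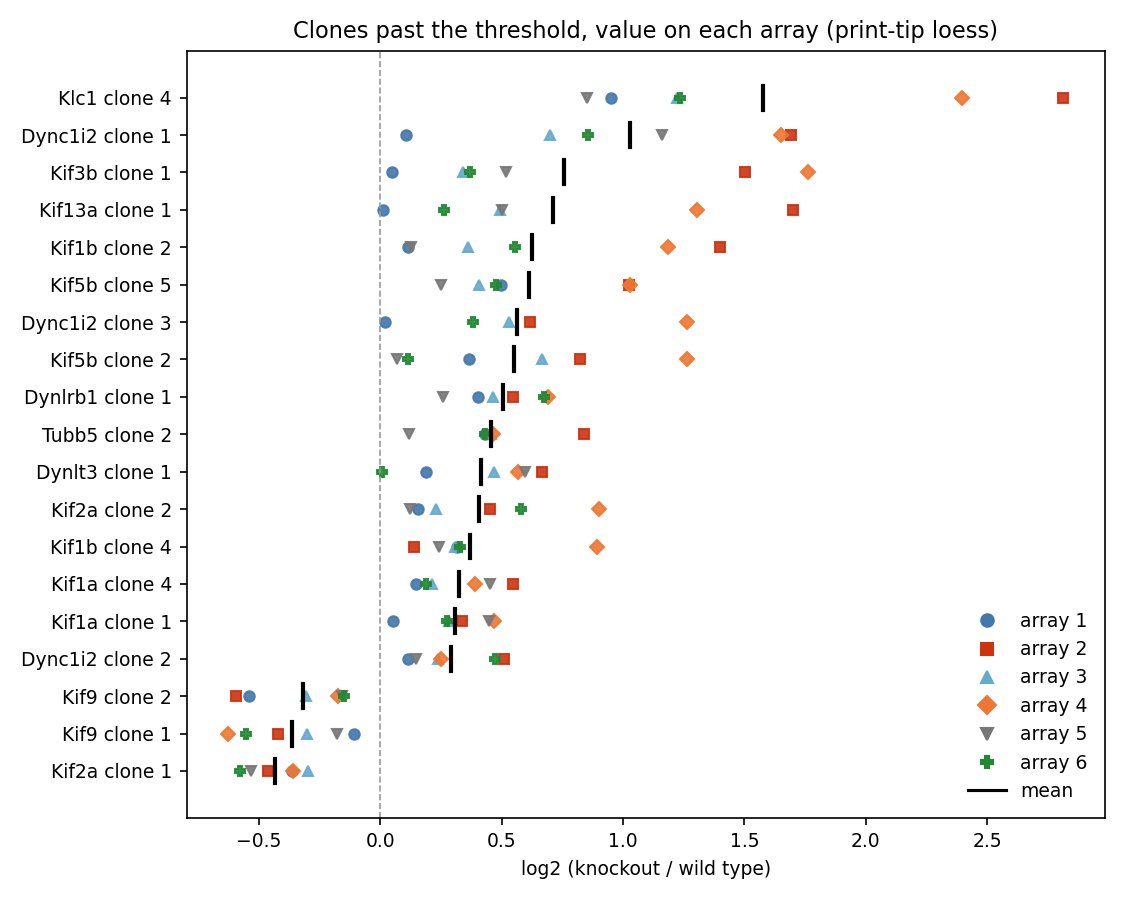
Log2 ratio of knockout over wild type (horizontal axis) on each of the 6 arrays for the 19 clones past the threshold, with a bar at the mean. All points of a clone lie on 1 side of 0, and the highest point of each of the 16 clones that rose belongs to array 2 or array 4.

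The tubulin that rose was a clone of Tubb5, a beta-tubulin found in most tissues. Tubb5 clone 2 read 0.43, 0.84, 0.46, 0.47, 0.12 and 0.43 on arrays 1 to 6, a mean of 0.46 ± 0.09 (SE, n = 6) with an adjusted p of 0.0288 in limma. Clones 1 and 3 lay close by at 0.32 and 0.43 and just missed the threshold (adjusted p of 0.0520 and 0.0522 in limma). Clone 4 stood at 0.23, clone 5 at -0.06 and clone 6 at -0.22. With global loess clones 1 to 4 rose, at 1.02, 1.17, 1.08 and 0.51, while clones 5 and 6 stood at -0.33 and -0.29. Clones 1 and 2 share print block 48, and clones 3 and 4 lie in blocks 40 and 39.

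None of the other beta-tubulins passed. Tubb2a, an isotype abundant in neurons, had clones at 0.42, 0.39 and 0.17, the first with an adjusted p of 0.0516 in limma. The 5 clones of Tubb4b, a broadly expressed isotype, lay between 0.02 and 0.16. Tubb3, the isotype used as a marker of neurons, had clones at -0.20 and 0.07, and Tubb4a, of brain, at -0.22 and 0.09. Tubb6 stood at 0.25, Tubb2b at 0.11, the pseudogene Tubb2a-ps2 at 0.11, and Tubb1, the isotype of platelets, at 0.27 and 0.06. Beta-tubulin isotypes are near-identical over much of their coding sequence, so a cDNA clone of 1 isotype may also bind another, and values are given by annotation. Of these genes Tubb2a-ps2, Tubb2b, Tubb3, Tubb4a, Tubb4b and Tubb6 had at least 1 clone that rose with global loess. The Tubb4a clone that rose was the one at -0.22, which lay below 0 on all 6 arrays after print-tip loess. With global loess it stood at 0.50 (adjusted p 0.0138 in limma) and the other Tubb4a clone at -0.14, so both signs depend on the normalization.

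Among alpha-tubulins the clone with the smallest p was Tuba4a clone 1, which read -0.02, 0.61, 0.30, 0.48, 0.16 and 0.43, a mean of 0.33 ± 0.09 (SE, n = 6; adjusted p 0.0509 in limma). It stood at -0.11 with global loess, so its sign depends on the normalization. Tuba1b, a widely expressed alpha-tubulin, stood at 0.28 (adjusted p 0.103 in limma) and rose with global loess (0.57), and Tuba8 stood at -0.09. Of the gamma-tubulin complex, which seeds new microtubules, Tubgcp5 came nearest, with 0.08, 0.30, 0.24 and 0.19 on arrays 1, 2, 5 and 6, a mean of 0.20 ± 0.10 (SE, n = 4; adjusted p 0.183 in limma). Tubgcp4 had clones at 0.08 and 0.07 and Tubgcp2 stood at -0.06.

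The rule for these genes asks how motors compare with tubulins. The median motor clone on arrays 1 to 6 stood at -0.02, 0.07, 0.06, 0.12, 0.00 and 0.08. The median tubulin clone stood at -0.00, 0.51, 0.10, 0.37, -0.05 and 0.20. The tubulin median was the higher on 5 of 6 arrays, and by most on arrays 2 and 4. Taken from clone means over all arrays, the motor median minus the tubulin median was -0.08. On single arrays that difference ran from -0.44 on array 2 to 0.05 on array 5 (SD 0.18, n = 6). The SD describes single arrays and is not the error of the -0.08. Without arrays 2 and 4 the medians were 0.04 for motors and 0.00 for tubulins. With global loess the difference was -0.34 and the tubulin median was the higher on all 6 arrays. No test was made of a score over members chosen by name. Tubulin clones had a higher median log2 signal (9.51) than motor clones (8.77), and 59.3% of tubulin clones lay in blocks 25 to 48, against 52.6% of motor clones. The part of signal and position in the difference was not tested.

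**Figure D4:**
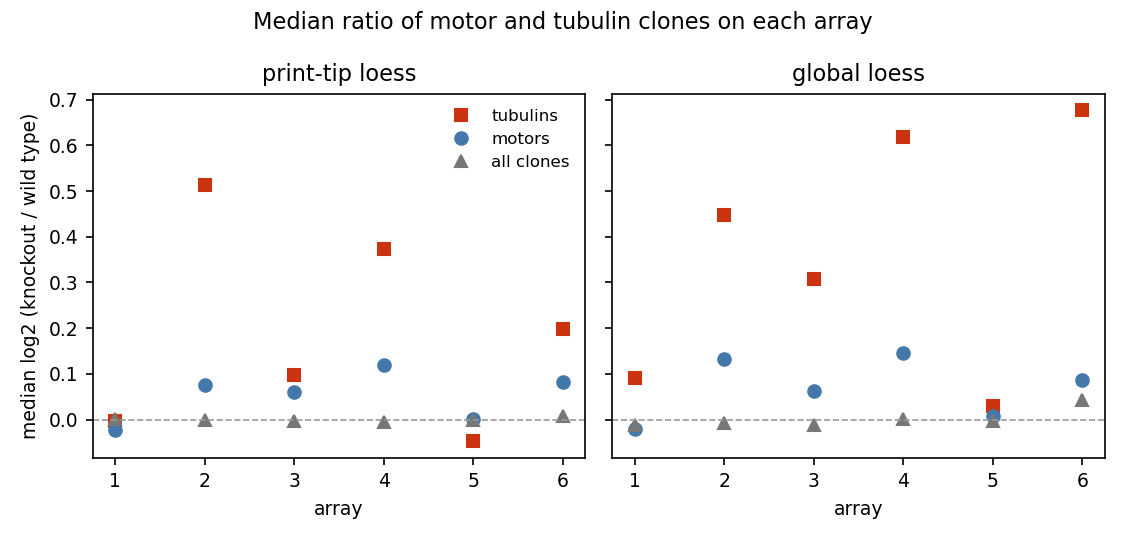
Median log2 ratio of knockout over wild type (vertical axis) of tubulin clones, motor clones and all clones on each array (horizontal axis), after print-tip loess on the left and global loess on the right. Tubulins reach 0.51 and 0.37 on arrays 2 and 4 after print-tip loess, while motors stay between -0.02 and 0.12 and all clones near 0.

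The calls depended on single arrays, among members as among all clones. All 16 member clones that rose had their highest value on array 2 or 4, and the 19 called clones kept 1 sign on every array measured. Neither count was made over all called clones, so neither can be read as particular to members. A common sign is also largely built into a call made on the same values. Without arrays 2 and 4, 1 of the 19 was called, against 91 of 25959 clones of all kinds (0.351%). All 19 kept their sign there, which their common sign on every array fixed in advance. Of the 19, 18 had an unadjusted limma p under 0.05, and Dync1i2 clone 3 had too few arrays for a test. Of clones of all kinds 4811 of 25959 had such a p. The arrays left had also served to call the 19, so these p-values are no separate check. Leaving out array 2, 3, 4 or 6 alone ended every member call (lowest adjusted p 0.0507 in limma). Of clones of all kinds, 1, 1, 29 and 1 were then called, against 3304 with all arrays, so the loss was not particular to members. Without array 1, 16 of the 19 were called, and without array 5, 10. With global loess 10 of the 19 were called in the same direction and 18 kept their sign. Without dim spots Kif9 clone 2 (-0.29, adjusted p 0.0829), Kif2a clone 2 (0.33, adjusted p 0.0565) and Kif1a clone 4 (0.32, adjusted p 0.0502 in limma) were no longer called, and Dync1i2 clone 3 had too few arrays. A further 8 of the 126 member clones had adjusted p between 0.05 and 0.06, so small changes in p move clones across the threshold.

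**Figure D5:**
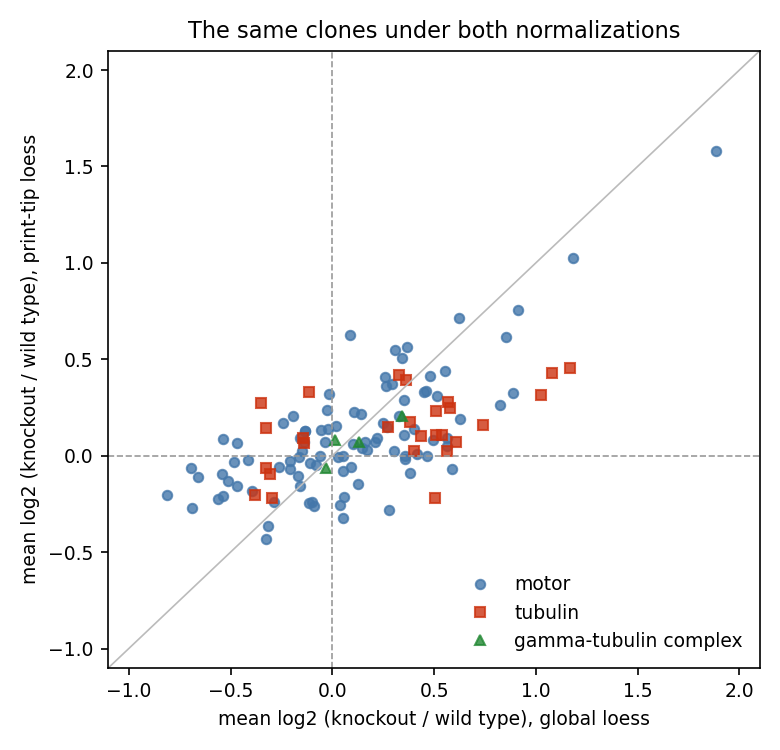
Mean log2 ratio of knockout over wild type of each tested clone after print-tip loess (vertical axis) against global loess (horizontal axis), with the diagonal drawn. The Klc1 clone at the upper right has 1.58 and 1.89, and Tubb5 clones 1 to 4 lie below the diagonal, with 0.46 against 1.17 for clone 2.

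Of 34 genes with at least 2 tested clones, 13 had all of them on 1 side of 0. Of the 12 genes with a call 5 had 2 or more clones called in 1 direction, namely Kif5b, Kif1a, Kif1b and Dync1i2 higher and Kif9 lower. Neither count was made over all genes of the arrays, so neither can be read as particular to members. Of the 145 clones 60 carry a title of the same family, 9 a title of another gene and 76 an uninformative title or none. Over the clones with a family title alone, 10 of 45 motor clones rose and 2 fell, and 1 of 7 tubulin clones rose. Among all clones, whatever their title, 6.88% rose and 4.61% fell.

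Genes that work with these motors were read with 1 clone each, that of highest signal. Of the microtubule-associated proteins 3 of 18 rose and 1 fell, with Map1b (0.56 ± 0.14, adjusted p 0.0380 in limma) and Eml1 (0.46 ± 0.09, adjusted p 0.0267 in limma) the largest. Of the plus-end tracking proteins, which ride growing tips, 2 of 10 rose and 1 fell, led by Clasp2 (0.81) and Mapre2 (0.49). Of the chaperonin subunits and cofactors that fold tubulin 3 of 19 rose and none fell, led by Tbcel (1.04) and Cct7 (0.68). Of the dynein regulators 2 of 15 rose, Nudc (0.83) and Rilp (0.50), and of the kinesin adaptors 1 of 14, Mapk8ip2 (0.47). These shares stand beside 6.88% higher and 4.61% lower among all clones. With global loess the counts were 5 higher and 1 lower for the microtubule-associated proteins, 2 and 1 for the plus-end proteins, 5 and 2 for the folding genes, 3 and 3 for the dynein regulators, and 2 and 4 for the kinesin adaptors, beside 16.3% and 14.2% of all clones. Mapk8ip2 was then at 0.29 and did not pass (adjusted p 0.0621 in limma).

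None of the 14 tubulin modifying and severing enzymes, the 4 stathmins or the 5 axonemal dyneins passed. With global loess 2 of the enzymes rose and 3 fell, 2 of the stathmins rose and 1 fell, and 1 axonemal dynein, Dnah9, fell (-0.70, adjusted p 0.0039 in limma). The smallest p in these lists belonged to Spast (-0.23, adjusted p 0.0786 in limma), Stmn2 (-0.19, adjusted p 0.0893 in limma) and Dnah9 (-0.25, adjusted p 0.0526 in limma). Stmn2, a tubulin-binding protein of neurons, read between -0.25 and -0.12 on the 6 arrays but rose with global loess (0.50). Spast, which cuts microtubules, likewise changed sign with global loess (0.32).

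Markers of the cell types of the gland were read beside the motors, and their counts stand against 6.88% higher and 4.61% lower among all clones. Of the chromaffin cell markers 3 of 7 rose and 1 fell, with a median of 0.65, and Scg3 (1.22) and Scg2 (0.89), granins of dense-core vesicles, were the largest. The median of that list on arrays 1 to 6 was 0.09, 0.79, 0.48, 1.14, 0.13 and 0.78. Arrays 2 and 4 were the highest, with array 6 close to array 2. The cortex list had its highest medians on arrays 2 and 4 too (1.56 and 1.37), as did the tubulins (0.51 and 0.37). The pattern is therefore not particular to chromaffin markers or motors. The summed signal of the chromaffin list was 0.0472% to 0.112% of all signal in the knockout channel and 0.0156% to 0.0467% in the wild-type channel. Of the neuron markers 1 of 6 rose, Nefl (1.08), and of the cortex markers 2 of 5 rose, Hsd3b1 (1.40) and Nr5a1 (0.62), with a list median of 0.67. Of the markers of proliferating cells 1 of 11 rose, Aurkb (1.45), with a median of -0.07, beside the spindle kinesins at -0.06. With global loess these medians were 0.03 and -0.17. Macrophages (C1qb, 0.88) and fibroblasts (Col1a1, 0.91) gave 1 gene each of 4 and of 5, while none of 3 Schwann and sustentacular markers and none of 5 endothelial markers passed. With global loess 5 chromaffin markers rose and 1 fell (median 1.01), and 4 cortex markers rose (median 1.16). Neuron markers then gave 3 higher and 1 lower, proliferating cells 4 and 1, and fibroblasts 2 and 2. Macrophages gave 2 higher, endothelium 1 higher, and Schwann and sustentacular cells none, beside 16.3% higher and 14.2% lower among all clones. The summed cortex signal was 0.0986% to 0.179% in the knockout channel and 0.0281% to 0.101% in the wild-type channel. No tested marker of any list lay at the floor of the deposited intensities in either channel on any array, while Dbh and Pnmt of the chromaffin list and Cyp11b1 and Cyp21a1 of the cortex list had no tested clone. The part of cell composition in the motor values was not tested.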

How the data were processed

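Adrenal gland RNA of PACAP -/- mice (Cy3) and PACAP +/+ mice (Cy5) was compared on 6 two-colour spotted arrays. The series design text names a GenePix 4000A scanner, the image program IPLab and a FileMaker Pro database. Software versions and the genome build are not given in the sources used here. The deposited red and green intensities were already background-subtracted by the authors and floored at 1.0, as the values show, and the authors' deposited quality score served as the filter they state (above 0.3). The authors' value table of log2 ratios was found, by setting it against the deposited intensities, to hold red over green after a second background subtraction and division by 1 constant per array, uncentred. Its rows were linked to spots by these values, 35793 of 35873 (99.8%) within 0.002, and all 2235 linked rows that share an accession with a spot met that spot. Gene names come from the platform annotation through the linked rows.

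From these, log2 of green over red, knockout over wild type, was normalized by print-tip loess in limma 3.58.1 (R 4.3.3). Repeated spots of a clone were averaged, 1369 control or empty spots were left out, and a clone needed values on 4 or more of the 6 arrays. Each mean ratio was then tested against 0 (lmFit, eBayes) with Benjamini-Hochberg adjustment over all 28739 clones. Precision is limited by the number of arrays, and between 25893 and 31815 spots passed the quality filter per array. The steps were checked on simulated data, and tables were made in Python 3.11.15. The members and lists were chosen with earlier results of these data known. Values on every array are given for member clones past the threshold and, in a class with none, for the clone of smallest p. Of each other list the 2 genes of largest ratio past the threshold are named, else that of smallest p. Alternatives were global loess, median centring, background added back, no quality filter, dim spots left out, all 6 arrays required, each array left out in turn, arrays 2 and 4 left out, and the authors' value table.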

Additional observations from a re-analysis of the deposited data

Results flagged for a closer look

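Kif1b clone 4 stood out by 1 array: it read 0.89 on array 4 (log2 of knockout over wild type), against 0.14 to 0.33 on the other 5 arrays. The gap to its nearest neighbour was 0.748 of the whole range. This was the only result past Dixon's limit among 22 that were looked at (19 called clones, the motor median, the tubulin median and their difference over 6 arrays), and chance flags about 1 in 20.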

How the results depend on the processing

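The counts depended strongly on the processing. Each array pairs 1 knockout with 1 wild-type RNA in a single ratio, so the main test was already paired and no other pairing was tried. With global loess 8772 clones of all kinds, 36 motor clones and 13 tubulin clones passed, and with median centring 9461, 34 and 15, against 3304, 18 and 1 with print-tip loess. The tubulin median was then 0.40 and 0.41, the motor minus tubulin difference -0.34 and -0.27, and 10 of the 19 called clones passed under each. The motor median was 0.14 with median centring. With no quality filter 1 clone, 0 motors, 0 tubulins and 0 of the 19 passed, although 10124 clones of 35879 had an unadjusted limma p under 0.05. Without arrays 2 and 4 the numbers were 91, 1, 0 and 1. The authors' value table gave 67, 0, 0 and 0 calls. It is uncentred, with all clones at a median of 0.99, motors at 1.23, tubulins at 1.08 and their difference at 0.14, which turned its sign. The tubulin count was 4 with the background added back, 4 without dim spots, 5 with all 6 arrays required and 0 with 1 clone per gene, where 12 clones were tested. That setting left 8 of 43 motor clones past the threshold. The motor median was 0.0014 without dim spots and 0.13 over clones with a family title. Leaving out 1 array in turn with print-tip loess gave 1 to 3821 clones of all kinds, 0 to 17 motor and 0 to 4 tubulin clones. The same with global loess gave 4483 to 8679, 13 to 32 and 6 to 16. With print-tip loess 0 to 16 of the 19 were called, and the calls of all members ended without array 2, 3, 4 or 6, and the medians stayed between 0.03 and 0.08 for motors, 0.07 and 0.20 for tubulins and -0.12 and -0.03 for their difference. Without arrays 2 and 4 that difference was 0.04. Signs turned for Kif9 clone 2, at 0.052 with global loess, 0.19 with median centring and 2.37 in the value table, and for Kif1b clone 2, at -0.14 with median centring. The cause was not tested. Weak red signal limits arrays 2 and 4, where 37.1% and 44.5% of net red values lay below their local background. These values are already background-subtracted, so such spots are dim but not necessarily absent.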

Other observations

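Some motor clones passed the quality filter on 3 arrays or fewer and were not tested, while 5 of the 145 clones passed on none. Kif7, a kinesin of Hedgehog signalling in the primary cilium, had log2 ratios of knockout over wild type of -0.18 and -2.03 on arrays 1 and 6, and Kif23 clone 3 had -0.27 and -0.94 on arrays 1 and 4. Their net wild-type signal, after background subtraction, lay under the local background on 5 and on 4 of the 6 arrays. The ciliary dynein genes Dync2h1 and Dync2li1 had -0.22 and 0.23, and 0.41 and 0.04, on 2 arrays each, and Kif4, a chromosome-bound kinesin, had -0.40 and 0.26. Kif18a and Kif26b had no array. Of the genes whose upstream windows hold the full cyclic AMP response element, Kif5c and Tubb2a had no clone past the threshold with print-tip loess, and Klc1 had 1.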
